A study of Mus musculus with 2 samples.

Results

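Epithelial cells of the prostate rest on a basement membrane, and 9 genes whose products build that attachment were followed here in single cells of mouse prostate lesions. The genes were Itga6, Itgb4, Itga3, Itgb1, Lama3, Lamb3, Col17a1, Dst and Plec. They are a fixed list of names, drawn up with earlier results of these data known, and all 9 were among the 19320 features measured. Hemidesmosomes are junctions at the base of an epithelial cell that tie the keratin filaments inside it to laminin outside it. In them the integrin of the Itga6 and Itgb4 products spans the membrane together with type XVII collagen, the product of Col17a1, while plectin (Plec) and the epithelial form of dystonin (Dst) link them to keratin. Laminin-332, which holds the Lama3 and Lamb3 products, is the ligand outside the cell, and the integrin of Itga3 and Itgb1 is a further receptor for it. In the normal prostate such junctions are known from basal cells, which lie on the basement membrane below the secretory luminal cells.

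The mice had the genotype R26 mTmG/hAR : Osr1 Cre/+. Recombination by Cre in Osr1-expressing cells and their descendants switches on a human androgen receptor transgene (hARtg) and membrane-bound green fluorescent protein (mGFP) together. Both alleles sit at the Rosa26 locus, and both tissues profiled, prostatic intraepithelial neoplasia (PIN) and prostatic adenocarcinoma (PCa), carried all of these alleles. Each was profiled as 1 library by droplet 3′ sequencing, so there were no replicates, no transgene-free tissue was included here, and the labels do not give the number of mice. By the study's account the PIN tissue came from younger mice than the PCa tissue. The 15742 cells carry 1 of 2 barcode endings, called set 1 (6332 cells, median 17235 unique molecular identifiers, UMIs) and set 2 (9410 cells, median 14824.5 UMIs), and nothing in the labels or column names ties an ending to PIN or PCa. The study's text gives a PIN cell count equal to that of set 1 and a PCa count close to that of set 2. Tissues were taken from labels only, so no set was named as a tissue. The sets are compared as sets, and library, tissue and set cannot be told apart. The sets shared 67 barcodes.

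A level in CPM is the number of UMIs of a gene, summed over the cells of a group, per 1000000 UMIs of that group. Ranges in parentheses are 95% intervals for counting error only, so they do not hold the spread between mice. For the same reason no p-value is given for any comparison. A ratio was called past 2-fold when its log2 value was above 1 or below -1 and its interval left out 0. After removal of presumed doublets, 1703 basal-like cells of set 1 and 362 of set 2 were found, beside 3116 and 7971 luminal-like, 194 and 360 fibroblast-like, 159 and 240 leukocyte-like and, in set 2, 171 endothelium-like cells. The 40 endothelium-like cells of set 1 were too few to describe. Basal-like cells carried their keratins (Krt14 at 4158 CPM in set 1 and 3989 CPM in set 2, Krt5 at 1434 and 507 CPM), and in luminal-like cells Krt14 was at 131 and 18.8 CPM and Krt5 at 39.7 and 9.35 CPM. The classes were also of unequal depth, with medians of 10861 and 5493 UMIs in basal-like and 28909.5 and 16676 UMIs in luminal-like cells.

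All 9 genes are protein-coding, and positions are given for mouse genome build GRCm38.p6, the patch release of mm10. The integrin genes lie at chr2:71786886-71858427 (Itga6), chr11:115974725-116008412 (Itgb4), chr11:95044475-95076844 (Itga3) and chr8:128685654-128733579 (Itgb1). The laminin chain gene Lamb3 lies at chr1:193294353-193343878. Col17a1 lies at chr19:47646341-47692042, Dst at chr1:33907888-34308662 and Plec at chr15:76170974-76231378.

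RefSeq promoter windows were at hand for 5 of the 9 genes. The 250 bases before a listed start are shown for Col17a1 and Lamb3, which among these 5 had the largest ratios of basal-like over luminal-like level in both sets, and for Itgb1, which had the smallest. They are written 5′ to 3′ on the strand of the gene, from chr19:47692043-47692292 (minus strand), chr1:193301744-193301993 (plus strand) and chr8:128685404-128685653 (plus strand). Capitals mark matches, on either strand, to 3 motifs: TGANTCA (bound by AP-1), AGAACA (a core of androgen receptor sites) and GGGCGG (the GC box).
Col17a1: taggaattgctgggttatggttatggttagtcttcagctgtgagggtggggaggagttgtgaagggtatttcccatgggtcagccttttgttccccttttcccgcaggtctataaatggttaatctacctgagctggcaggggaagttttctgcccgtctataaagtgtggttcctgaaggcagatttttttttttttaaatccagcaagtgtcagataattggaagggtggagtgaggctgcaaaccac
Lamb3: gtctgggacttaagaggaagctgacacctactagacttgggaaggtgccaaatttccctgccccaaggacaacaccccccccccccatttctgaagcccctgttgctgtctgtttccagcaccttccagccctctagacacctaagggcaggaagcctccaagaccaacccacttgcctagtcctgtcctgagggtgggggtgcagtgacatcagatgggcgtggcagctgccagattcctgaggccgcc
Itgb1: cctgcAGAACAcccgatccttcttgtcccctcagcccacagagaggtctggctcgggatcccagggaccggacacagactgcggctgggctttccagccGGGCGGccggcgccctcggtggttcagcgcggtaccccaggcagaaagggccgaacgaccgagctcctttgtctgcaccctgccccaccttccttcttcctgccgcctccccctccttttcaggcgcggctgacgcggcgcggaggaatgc
The Col17a1 and Lamb3 windows held none of these letters, and the Itgb1 window held AGAACA once and the GC box once. The Lamb3 window lies inside the span of the gene given above, not before it. The window of a further listed start of Lamb3, at chr1:193301993-193302242, is not shown. Among all 32851 promoter windows of this length, 6.75% held TGANTCA, 16.1% held AGAACA and 32.7% held GGGCGG. The matches describe the letters of these windows only.

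The first question was where in the tissue the attachment genes were transcribed. Basal-like cells held the highest level of each of the 9 genes among the named classes of set 1, and of 7 of the 9 in set 2. Endothelium-like cells were part of this ranking in set 2 only. The exceptions in set 2 were Itga6 and Plec, whose levels in endothelium-like cells were slightly higher with overlapping intervals. Outside the named classes, the unnamed cluster 14 of set 2 held more Itgb1 (937 CPM) than the basal-like cells of that set (590 CPM). As a ratio, the difference between basal-like and luminal-like cells was largest for Col17a1, at 422 CPM (414 to 431) in set 1 and 223 CPM (205 to 241) in set 2, against luminal-like levels of 17.8 (16.9 to 18.6) and 1.68 CPM (1.49 to 1.89). In set 2 no Col17a1 UMI was found in 240 leukocyte-like cells, which allows up to 1.74 CPM, and the luminal-like level of that set lay within this limit. In set 1 leukocyte-like cells, which should lack the gene, held 8.61 CPM (5.26 to 13.3), below the luminal-like level. With cells thinned to 3000 UMIs each, 57.3% of basal-like cells of set 1 and 38.3% of set 2 had a Col17a1 UMI, against 3.78% and 0.305% of luminal-like cells (1.28% and 0% of leukocyte-like cells).

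The laminin-332 chain genes among the members are Lama3 and Lamb3. Lama3, the alpha chain gene, lies at chr18:12333417-12583013. Lamb3 was at 202 CPM (196 to 208) in basal-like cells of set 1 and 90.6 CPM (79.6 to 103) in set 2, and at 26 CPM (25.1 to 27.1) and 2.03 CPM (1.82 to 2.25) in luminal-like cells. Lama3 was at 104 CPM (99.6 to 108) and 43.1 CPM (35.6 to 51.7) in basal-like cells and at 12.3 and 2.64 CPM in luminal-like cells. Leukocyte-like cells of set 1 held 15.5 CPM of Lamb3 and 6.45 CPM of Lama3, so that the luminal-like levels of set 1 stood clear of that background. In set 2 the background levels were 0.942 CPM (0.114 to 3.4) and 0.471 CPM (0.0119 to 2.63), and their intervals overlapped those of the luminal-like levels of both chains.

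The receptor genes parted into those that basal-like cells held far above luminal-like cells and 1 that they did not. Basal-like cells held Itgb4 at 152 CPM (147 to 157) in set 1 and 109 CPM (96.5 to 122) in set 2, and luminal-like cells at 42.8 (41.6 to 44.1) and 7.46 CPM (7.06 to 7.88). Its partner Itga6 was at 283 CPM (276 to 290) and 216 CPM (199 to 235) in basal-like cells, and luminal-like cells still held 202 CPM (199 to 204) and 189 CPM (186 to 191). Endothelium-like cells of set 2 held 226 CPM of Itga6 (206 to 248), an interval that overlapped that of the basal-like cells, while fibroblast-like and leukocyte-like cells held 19.3 to 48.4 CPM. Itga3 was at 137 and 118 CPM in basal-like cells, 38.5 and 12.5 CPM in luminal-like cells and 49.5 CPM in endothelium-like cells. Itgb1, which pairs with many alpha chains, was at 847 CPM (835 to 860) and 590 CPM (561 to 620) in basal-like cells. It was found throughout the stroma, at 370 and 277 CPM in fibroblast-like cells of sets 1 and 2 and 428 CPM in endothelium-like cells of set 2. Each of these levels lay above that of luminal-like cells of the same set, which was 282 CPM in set 1 and 88.9 CPM in set 2.

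The cytolinker genes were spread more widely. Dst was at 393 CPM (385 to 402) and 329 CPM (308 to 352) in basal-like cells, 170 CPM in endothelium-like cells and 52.2 to 91.9 CPM in fibroblast-like and leukocyte-like cells. Luminal-like cells of set 1 held 115 CPM of Dst and those of set 2 held 14.7 CPM (14.1 to 15.3), below every other named class of that set. Basal-like cells held Plec at 206 CPM (200 to 212) and 184 CPM (168 to 201), luminal-like cells at 148 and 58.8 CPM, and endothelium-like cells at 211 CPM (191 to 232), an interval that overlapped that of the basal-like cells of set 2. Dst makes several forms, of which 1 is epithelial, and reads near the 3′ end were not resolved into them.

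**Figure D1:**
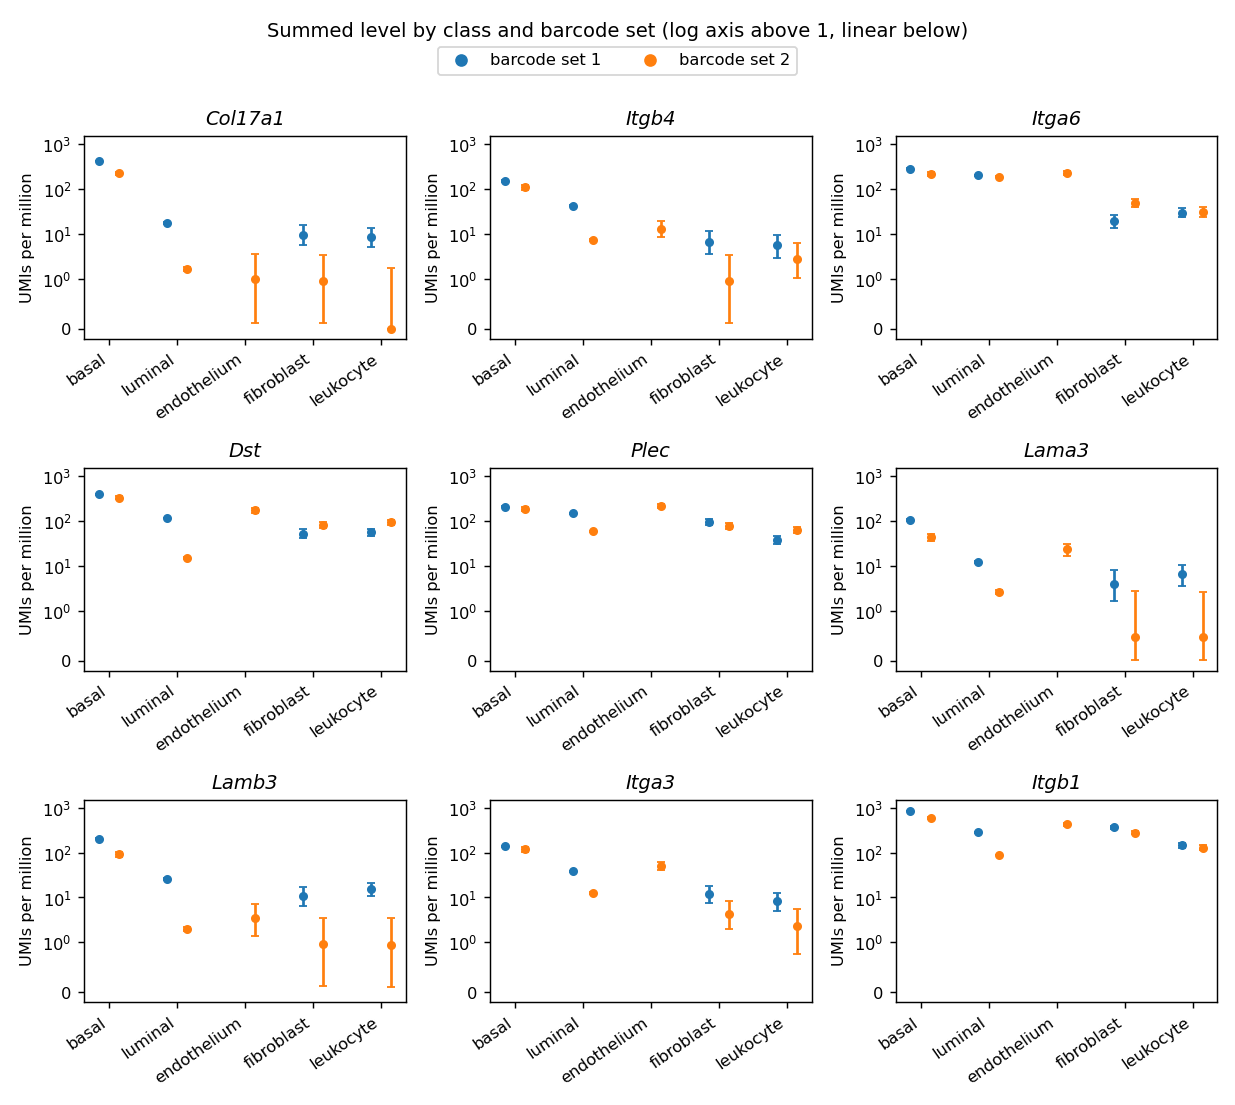
Summed level of each member (y axis, CPM, logarithmic above 1 and linear below) in 5 classes (x axis) of set 1 (blue) and set 2 (orange), with 95% counting intervals as bars and no endothelium-like point for set 1. Col17a1 drops from 422 CPM in basal-like to 17.8 CPM in luminal-like cells of set 1, while Itga6 drops only from 283 to 202 CPM.

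Read as ratios, 7 of the 9 genes were past 2-fold higher in basal-like than in luminal-like cells of set 1 and 8 of 9 in set 2, with none past 2-fold lower. Among all genes tested, 10.5% of 12982 were past 2-fold higher and 27.7% lower in set 1, and 17.0% of 13119 higher and 22.0% lower in set 2. The median log2 ratio of the members was 1.83 and 3.86, against -0.26 and -0.05 over all genes tested. The ratio of Col17a1 was 4.57 (4.50 to 4.65) in set 1 and 7.05 in set 2, that of Lama3 3.08 and 4.03, and that of Lamb3 2.96 and 5.48. Those of Itgb4 were 1.83 and 3.86, of Itga3 1.83 and 3.24, of Dst 1.77 and 4.49, and of Itgb1 1.58 and 2.73. Itga6 was past 2-fold in neither set, at 0.49 (0.45 to 0.53) and 0.20 (0.08 to 0.32), and Plec was at 0.48 in set 1 and past 2-fold in set 2. Since the basal-like cluster was found with these 9 genes left out of the clustering, they did not define it, but genes that vary with them did.

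**Figure D2:**
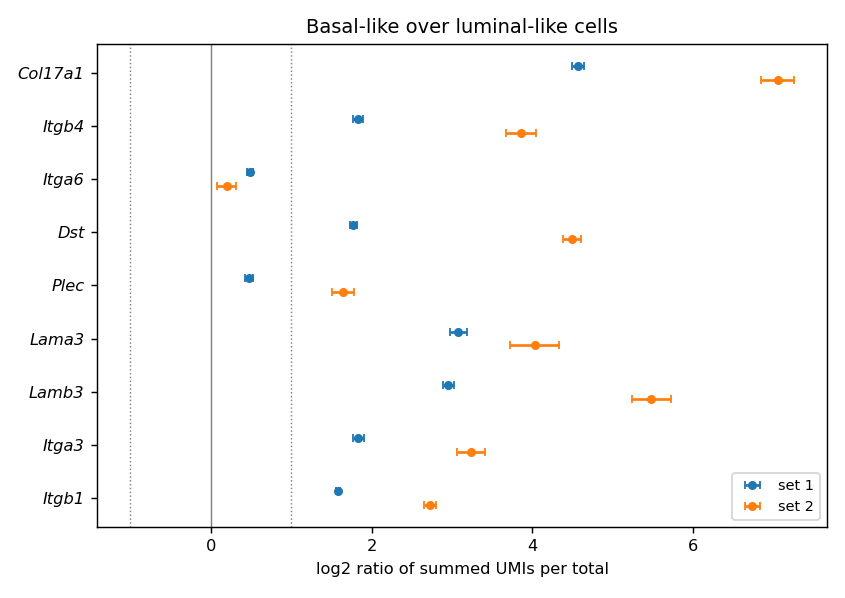
Log2 ratio of summed UMIs per total, basal-like over luminal-like cells (x axis), for each member (y axis) in set 1 (blue) and set 2 (orange), with 95% counting intervals. The solid line marks no difference and the dotted lines 2-fold. Col17a1 reaches 4.57 and 7.05, and Itga6 stays at 0.49 and 0.20.

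Genes of the same pathway were read from lists of related genes. Of 13 other laminin chains and basement membrane genes, 10 were tested in set 1, with 7 higher and 1 lower past 2-fold in basal-like cells. In set 2, 11 were tested, with 7 higher and 2 lower. Over all genes tested, 10.5% were higher and 27.7% lower in set 1, and 17.0% higher and 22.0% lower in set 2. No gene of the other lists was past 2-fold lower. Col4a1, a collagen IV chain, was in set 1 at 32 CPM in the basal-like and 3.12 CPM in the luminal-like class, and Col7a1, the anchoring fibril collagen, at 24.5 and 4.49 CPM. Lama5, a laminin chain of many epithelia, was not past 2-fold, at 42.5 and 53 CPM in set 1 and 41.2 and 31.4 CPM in set 2. Of the other integrins, 5 of 7 tested in set 1 and 4 of 6 in set 2 were higher. Itga2, a collagen receptor chain, was at 63.8 against 11.8 CPM in set 1 and at 14.6 against 0.728 CPM in set 2. Of 8 integrin adaptors, 3 were higher in set 1 and 6 in set 2, with Fermt1 (kindlin-1) at 93.3 against 17.5 CPM and 84.6 against 2.42 CPM. Of 10 other plakins and desmosome genes, 3 were higher in set 1 and 6 in set 2, among them the desmosome gene Perp at 1369 against 316 CPM in set 1. Cd151, the tetraspanin of laminin-binding integrins, was in set 1 at 87.2 CPM in the basal-like and 98.9 CPM in the luminal-like class.

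The genes whose level over 12 groups of cells was most like the mean pattern of the members were, on the log2(CPM + 10) scale, Catsper4 (Pearson r = 0.974), Kif13a (0.974), Car8 (0.967), Dennd2c (0.963) and Fermt1 (0.962). The groups share 2 libraries, and Catsper4 was near the floor, at 1.8 CPM or less. Kif13a, a kinesin gene, was in set 1 at 101 CPM in the basal-like and 28.5 CPM in the luminal-like class. Among the members, each of which is itself part of that mean, Lama3 (r = 0.953), Itgb4 (0.947) and Itga3 (0.945) stood closest to that mean, while Lamb3 stood farthest, at 0.571.

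Partner transcripts were then looked for in the same cells, thinned to 3000 UMIs. In basal-like cells of set 1, 18.9% (17.1 to 20.9) held both Itga6 and Itgb4, against 17.4% from the product of the single shares. Lama3 and Lamb3 were found together in 10.4% (8.94 to 11.9), against a product of 9%. Co-detection of partners in basal-like cells therefore lay near what the single shares give. In luminal-like cells of set 2, 12 of 7878 cells held both Lama3 and Lamb3, a share of 0.152% (0.0787 to 0.266) against a product of 0.0039%. The 2 transcripts were thus found together more often there than the single shares give, and the luminal-like clusters described below differed in both.

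The next question was whether the recombined Osr1 lineage differed in these genes. A cell was called EGFP-low when its rate of EGFP UMIs, taken as mGFP, was at or under that of leukocyte-like cells of its set (97.7 CPM in set 1 and 1346 CPM in set 2), and EGFP-high when it held at least 3 EGFP UMIs at 4 times that rate or more. Basal-like cells held 499 EGFP-high and 1014 EGFP-low cells in set 1 and 146 and 189 in set 2. The transgene, read as ARQ, was at 745 against 107 CPM in set 1 and 836 against 391 CPM in set 2. Leukocyte-like cells held ARQ at 21.5 CPM in set 1 and 192 CPM in set 2. The EGFP-low basal-like cells of both sets thus held more ARQ than that background, and are not a transgene-free group.

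In basal-like cells none of the 9 genes was past 2-fold between EGFP-high and EGFP-low cells in either set, in either direction. Over all genes tested, 3.08% were higher and 3.58% lower in set 1, and 1.41% were higher and 0.621% lower in set 2. Smaller differences were seen in set 1. Col17a1 was at 319 CPM (306 to 331) in EGFP-high and 490 CPM (478 to 503) in EGFP-low cells, a log2 ratio of -0.62 (-0.69 to -0.55). Itgb1 was at 641 CPM (624 to 659) and 961 CPM (944 to 978), a ratio of -0.58. The intervals of Plec (-0.33), Itga3 (-0.28), Itga6 (-0.13) and Dst (-0.10) also lay below 0. Itgb4, at 155 and 153 CPM, Lamb3, at 206 and 201 CPM, and Lama3, at 102 and 109 CPM, had intervals that held 0. The interval of the Itgb4 ratio ran from -0.09 to 0.12.

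Graded by EGFP, the Col17a1 level of set 1 went from 490 CPM in EGFP-low cells to 393 CPM in cells between the limits, 344 CPM in the lower part and 284 CPM (266 to 302) in the upper part of the EGFP-high cells. Itgb1 was at 961, 944, 704 and 557 CPM over the same groups. Itgb4 was at 153, 131, 145 and 170 CPM and Lamb3 at 201, 190, 209 and 202 CPM, with no such order. In set 2 the same rule set a higher limit for EGFP-high cells, at 5383 CPM of EGFP against 391 CPM in set 1. Its EGFP-low cells also held more ARQ, at 391 CPM against 107 CPM. With 146 EGFP-high and 189 EGFP-low cells, the interval of 1 gene left out 0 there, that of Itgb1 at -0.20 (-0.35 to -0.05). Col17a1 was at 243 CPM (216 to 272) in EGFP-high against 218 CPM (193 to 246) in EGFP-low cells. The basal list, which holds keratin genes and Trp63, moved with the Col17a1 and Itgb1 difference in set 1. Its 5 genes summed to 8744 CPM in EGFP-high and 16029 CPM in EGFP-low cells, with Krt14 at 2132 and 5335 CPM and Krt15 at 4291 and 5027 CPM, and in set 2 to 8881 and 10260 CPM. Its part in the result was not tested. The leukocyte list was at 3041 and 2078 CPM in set 1, almost all of it Cd74 (3038 and 2072 CPM), with Ptprc at 1.41 and 1.57 CPM. Of the list of 6 fibroblast genes, Dcn made up 2548 CPM (2513 to 2584) and 2501 CPM (2473 to 2528), with overlapping intervals.

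**Figure D3:**
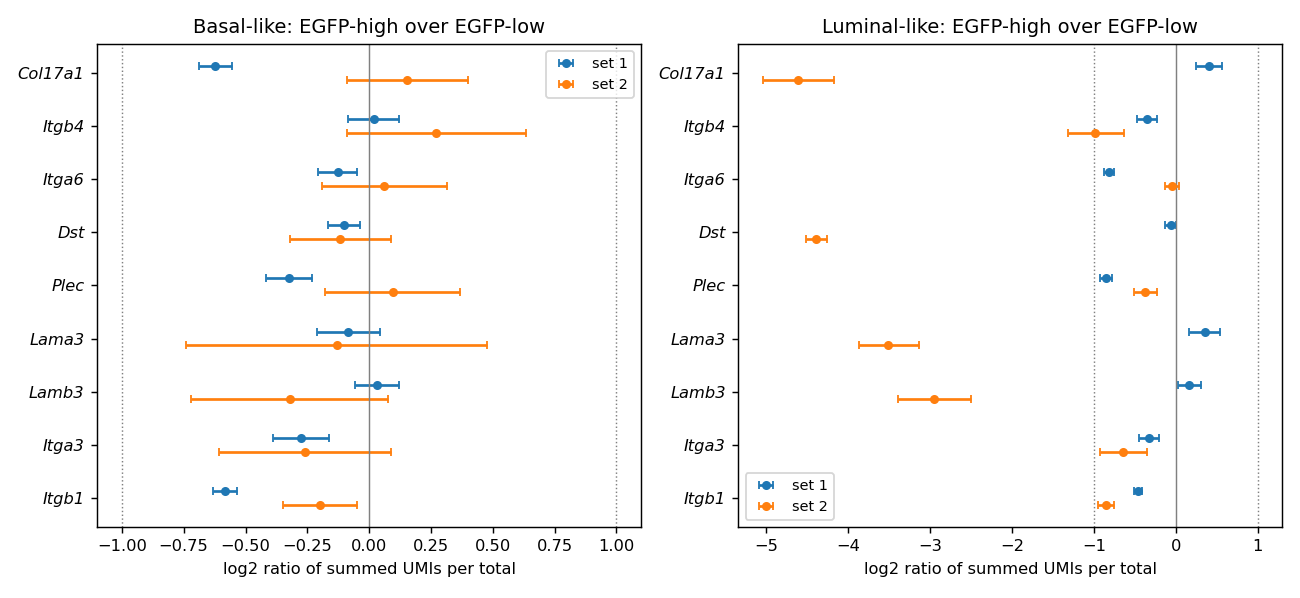
Log2 ratio of summed UMIs per total, EGFP-high over EGFP-low cells (x axis), for each member (y axis) in basal-like (left) and luminal-like cells (right) of set 1 (blue) and set 2 (orange), with 95% counting intervals. Dotted lines mark 2-fold. In basal-like cells every point lies within 2-fold, and in luminal-like cells of set 2 Col17a1 (-4.61), Dst, Lama3 and Lamb3 lie far below.

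In luminal-like cells the sets differed. In set 1, with 551 EGFP-high and 2425 EGFP-low cells, none of the 9 genes was past 2-fold, where 4.36% of 12469 genes were higher and 3.92% lower. Plec was at 90.1 CPM (86 to 94.4) in EGFP-high and 162 CPM (159 to 165) in EGFP-low cells, and Itga6 at 125 and 221 CPM, log2 ratios of -0.85 and -0.82. Col17a1 (21.9 and 16.5 CPM), Lama3 (14.9 and 11.7 CPM) and Lamb3 (28.5 and 25.4 CPM) were higher in EGFP-high cells by 0.41, 0.35 and 0.17. In set 2, with 7106 EGFP-high and 276 EGFP-low cells, 4 of the 9 genes were past 2-fold lower in EGFP-high cells, where 12.2% of 12866 genes were higher and 16.6% lower. Dst was at 7.5 CPM (7.08 to 7.94) against 157 CPM (147 to 168), Col17a1 at 0.63 against 15.4 CPM (12.3 to 19), Lama3 at 1.38 against 15.7 CPM and Lamb3 at 1.28 against 9.89 CPM. Itga6 was at 190 and 196 CPM, a ratio of -0.04 (-0.13 to 0.04), and Itgb4 at 6.78 and 13.4 CPM.

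That difference in set 2 went along with the kind of luminal cell. Of the 276 EGFP-low cells, 65.9% were in cluster 5, led by the secretory genes Tgm4 and Ren1, and 28.3% in cluster 6, led by Wfdc2 and Krt4, while these clusters held 0.675% and 1.01% of the EGFP-high cells. The basal list moved too, at 599 CPM in the EGFP-low and 32.6 CPM in the EGFP-high cells, as did a list of 6 proximal or urethral luminal genes (478 and 104 CPM) and, the other way, a list of 4 seminal vesicle epithelium genes (44.2 and 1846 CPM). Within the basal list Trp63 did not fall, at 1.06 CPM (0.389 to 2.31) and 2.12 CPM (1.9 to 2.36), with overlapping intervals. The part of these lists was not tested. Within 1 cluster the contrast could be made in cluster 6 alone, with 72 EGFP-high and 78 EGFP-low cells, and there the ratio pointed the other way. Lama3 was at 94.7 CPM in EGFP-high and 30.7 CPM in EGFP-low cells, a log2 ratio of 1.62 (1.12 to 2.15), Lamb3 at 68.7 and 20.3 CPM (1.76), Itgb4 at 65.2 and 25.1 CPM (1.38) and Col17a1 at 27.3 and 8.38 CPM (1.71), with the basal list at 895 and 992 CPM. The transgene (ARQ) was nearly level over that split, at 725 and 652 CPM (0.15), although EGFP was at 7874 and 369 CPM. Dst was at 89.1 and 93.6 CPM there. With cluster 5 left out, a choice made after the values were seen, the ratio in the remaining luminal-like cells of set 2 was -4.46 for Lama3, -4.05 for Lamb3 and -1.81 for Itgb4.

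In set 1 the contrast could be made within clusters 1, 4, 6 and 10, and Col17a1 was higher in EGFP-high cells in each. Its log2 ratio was 1.54 (0.76 to 2.41), 1.19 (0.88 to 1.49), 0.47 (0.21 to 0.72) and 1.70 (1.10 to 2.29) in that order, larger than the pooled 0.41. Lama3 had an interval above 0 in clusters 4 (1.36), 6 (0.70) and 10 (1.03), and 0.56 (-0.18 to 1.36) in cluster 1. The fall of Itga6 and Plec in EGFP-high cells of set 1 was largest, among these 4 clusters, in cluster 1. Itga6 was there at 76 against 219 CPM and Plec at 54.4 against 202 CPM. Over both sets cluster 1 is led by the seminal vesicle secretory genes Svs5 and Svs3a. Its cells of set 1, though, held the seminal vesicle list at 4.91 CPM, against 7216 CPM in set 2. The log2 ratios of Itga6 and Plec were -0.04 and -0.15 in cluster 4 and 0.20 and 0.24 in cluster 10. The basal list was higher in EGFP-high cells of clusters 1 (768 against 420 CPM), 6 (4234 against 2602 CPM) and 10 (594 against 193 CPM) and close in cluster 4 (1714 against 1584 CPM). Its genes differed in direction over all luminal-like cells of set 1. Krt15 (1069 against 493 CPM) and Krt5 (44.8 against 37.6 CPM) were higher in EGFP-high cells. Krt14 (105 against 138 CPM) and Krt17 (218 against 535 CPM) were lower, with Trp63 at 0.552 and 0.248 CPM. The part of the basal list in the Col17a1 values was not tested.

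Last, the sets were compared within a class. In basal-like cells all 9 genes had an interval below 0 in set 2, and 2 of 9, the laminin chains Lama3 and Lamb3, were past 2-fold lower, where 6.28% of 9909 genes were lower and 4.39% higher. Lama3 was at 43.1 against 104 CPM, a log2 ratio of -1.27 (-1.55 to -0.998), and Lamb3 at 90.6 against 202 CPM, a ratio of -1.16 (-1.35 to -0.97). Col17a1 was at -0.92, Itgb1 at -0.52, Itgb4 at -0.49, Itga6 at -0.38, Dst at -0.26, Itga3 at -0.22 and Plec at -0.16. Among EGFP-high basal-like cells Lama3 (-1.44) and Lamb3 (-1.36) were again the 2 of 9 past 2-fold, where 5.77% of 7900 genes were lower and 3.77% higher, and Plec was at 0.09 (-0.12 to 0.29). Those EGFP-high cells held EGFP at 11342 CPM in set 2 and 6858 CPM in set 1, and ARQ at 836 and 745 CPM. Basal-like cells had a median of 5493 UMIs in set 2 and 10861 in set 1, and their basal list summed to 9618 and 13331 CPM. Of that list Trp63 went the other way, at 12.4 CPM (8.51 to 17.4) and 6.11 CPM (5.13 to 7.23). In the same order the luminal list summed to 5384 and 3735 CPM, the proximal or urethral list to 594 and 1415 CPM, the fibroblast list to 1161 and 2507 CPM, the leukocyte list to 14.6 and 2416 CPM and the seminal vesicle list to 52.8 and 0.0898 CPM. Nearly all of the fibroblast sums was Dcn, at 1160 and 2506 CPM. In the leukocyte list Cd74 was at 3.75 and 2411 CPM and Ptprc at 1.5 and 1.48 CPM. The part of these lists in the values was not tested.

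In luminal-like cells 8 of the 9 genes were past 2-fold lower in set 2, all but Itga6, where 22.4% of 14225 genes were lower and 14.3% higher. The ratio was -3.68 for Lamb3, -3.40 for Col17a1, -2.97 for Dst, -2.52 for Itgb4, -2.22 for Lama3, -1.67 for Itgb1, -1.63 for Itga3 and -1.33 for Plec. Itga6 was at -0.10 (-0.12 to -0.07). Among EGFP-high luminal-like cells 7 of 9 were past 2-fold lower, where 18.8% of 13214 genes were lower and 14.0% higher, with Plec at -0.66 and Itga6 higher in set 2 by 0.60 (0.54 to 0.66). These EGFP-high cells were not matched on reporter or transgene, since the EGFP limit was higher in set 2. They held EGFP at 10768 CPM in set 2 and 4652 CPM in set 1, and ARQ at 1582 and 642 CPM. Of the related lists, 5 of 7 other integrins tested, 3 of 8 integrin adaptors, 5 of 10 plakins and desmosome genes and 3 of 11 basement membrane genes tested were lower in set 2, and 2 basement membrane genes were higher. Itga2 was at 0.728 against 11.8 CPM and Fermt1 at 2.42 against 17.5 CPM, while Lama2 was at 4.28 against 0.0501 CPM. Over luminal-like cells the basal list summed to 60 CPM in set 2 and 1267 CPM in set 1. Its member Trp63 went the other way, at 2.08 CPM (1.87 to 2.3) in set 2 and 0.31 CPM (0.211 to 0.441) in set 1. The leukocyte list summed to 16.2 and 3709 CPM, the set 1 value being nearly all Cd74 (3704 CPM), with Ptprc at 1.27 CPM. The proximal or urethral list summed to 129 CPM in set 2 and 1749 CPM in set 1, and the seminal vesicle list to 1904 and 0.911 CPM. The part of these lists in the result was not tested.

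**Figure D4:**
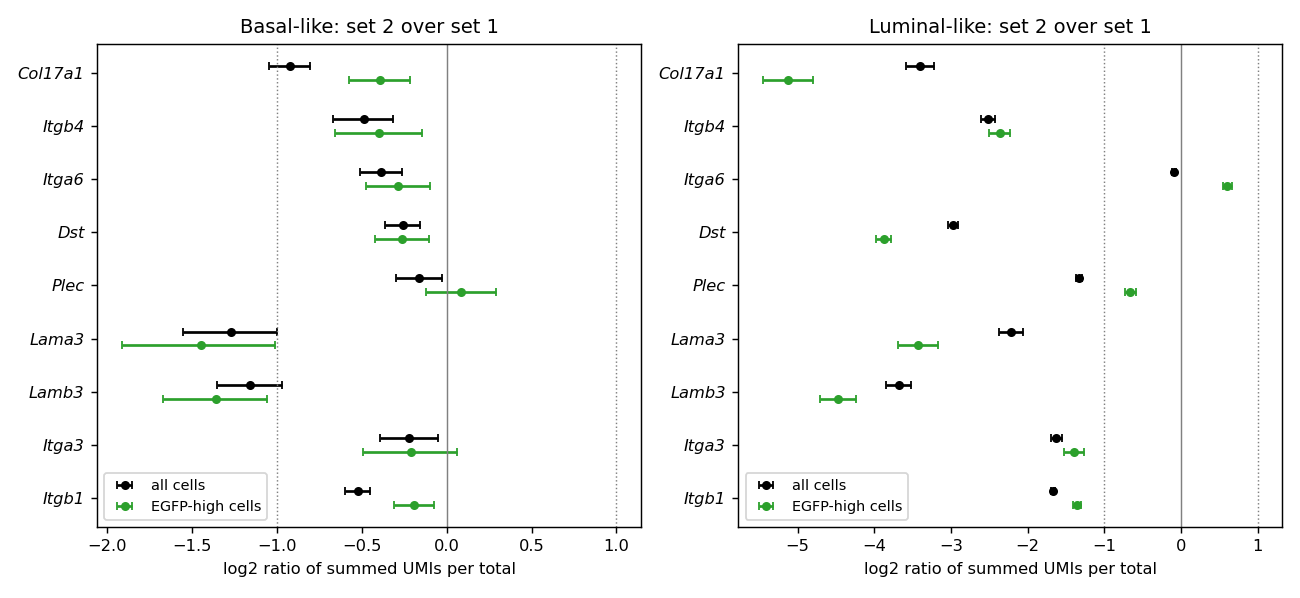
Log2 ratio of summed UMIs per total, set 2 over set 1 (x axis), for each member (y axis) in basal-like (left) and luminal-like cells (right), over all cells (black) and EGFP-high cells (green), with 95% counting intervals. Dotted lines mark 2-fold. In basal-like cells only Lama3 and Lamb3 pass 2-fold, and in luminal-like cells Itga6 alone stays near 0 over all cells.

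The luminal-like cells of the sets were not of the same kinds. Clusters 0, 3 and 7, led by Gulo and Mt3, by the defensin genes Defa22 and Defa21 and by the mitosis genes Ube2c and Birc5, made up 41.2%, 19.6% and 9.5% of the luminal-like cells of set 2, with 5 cells of set 1 in cluster 0 and 32 in cluster 7. In cluster 0 of set 2 Lamb3 was at 0.152 CPM (0.0694 to 0.288), Lama3 and Col17a1 both at 0.186 CPM, Dst at 3.44 CPM and Itgb4 at 2.65 CPM, beside 232 CPM of Itga6 (228 to 236). With clusters 0, 3 and 7 left out, a choice made after the values were seen, 6 of the 9 genes stayed past 2-fold lower in set 2. Itga3 (-0.81) and Lama3 (-0.77) were then within 2-fold, and Itga6 was at -0.37.

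Within clusters shared by the sets, clusters 1 and 4 held less of most members in set 2. In cluster 1 Lamb3 was at 0.555 CPM in set 2 and 21.9 CPM in set 1, Lama3 at 0.101 and 5.33 CPM, Col17a1 at 0.303 and 6.92 CPM and Dst at 10.1 and 86.6 CPM, while Itga6 was at 146 and 127 CPM. The cells of this cluster differed between the sets in their markers too, with the seminal vesicle list at 7216 CPM in set 2 and 4.91 CPM in set 1, the basal list at 13.5 and 641 CPM and the proximal or urethral list at 85.7 and 666 CPM. In cluster 4, led by Krt6a and Clu, Lamb3 was at 8.57 and 40.3 CPM and Itga6 at 163 and 289 CPM, beside the seminal vesicle list at 1271 and 0.374 CPM and the basal list at 62.4 and 1612 CPM. The part of these lists was not tested. In clusters 5 and 6 members differed in direction. Lama3 was higher in set 2 in both, at 13.3 against 4.45 CPM and 68.1 against 26 CPM, and Dst was at 168 and 169 CPM in cluster 5 and 96.2 and 103 CPM in cluster 6. Col17a1 was higher in set 2 in cluster 5 (18.8 against 6.65 CPM) and lower in cluster 6 (21.4 against 35.7 CPM). Of the others in cluster 5, Itgb4 (-0.96), Plec (-0.75), Itgb1 (-0.55) and Itga3 (-0.49) had log2 ratios with intervals below 0, and Itga6 (-0.05) and Lamb3 (-0.19) had intervals that held 0. In cluster 6 Itgb4 (-0.33), Itga6 (-0.21) and Itgb1 (-0.16) had intervals below 0, Plec (0.18) and Lamb3 (0.24) above it, and that of Itga3 (-0.19) held 0. These 4 clusters also differed in their share of EGFP-high cells in set 2, at 95.3% in cluster 1 and 91.6% in cluster 4 against 16.8% in cluster 5 and 32.9% in cluster 6.

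**Figure D5:**
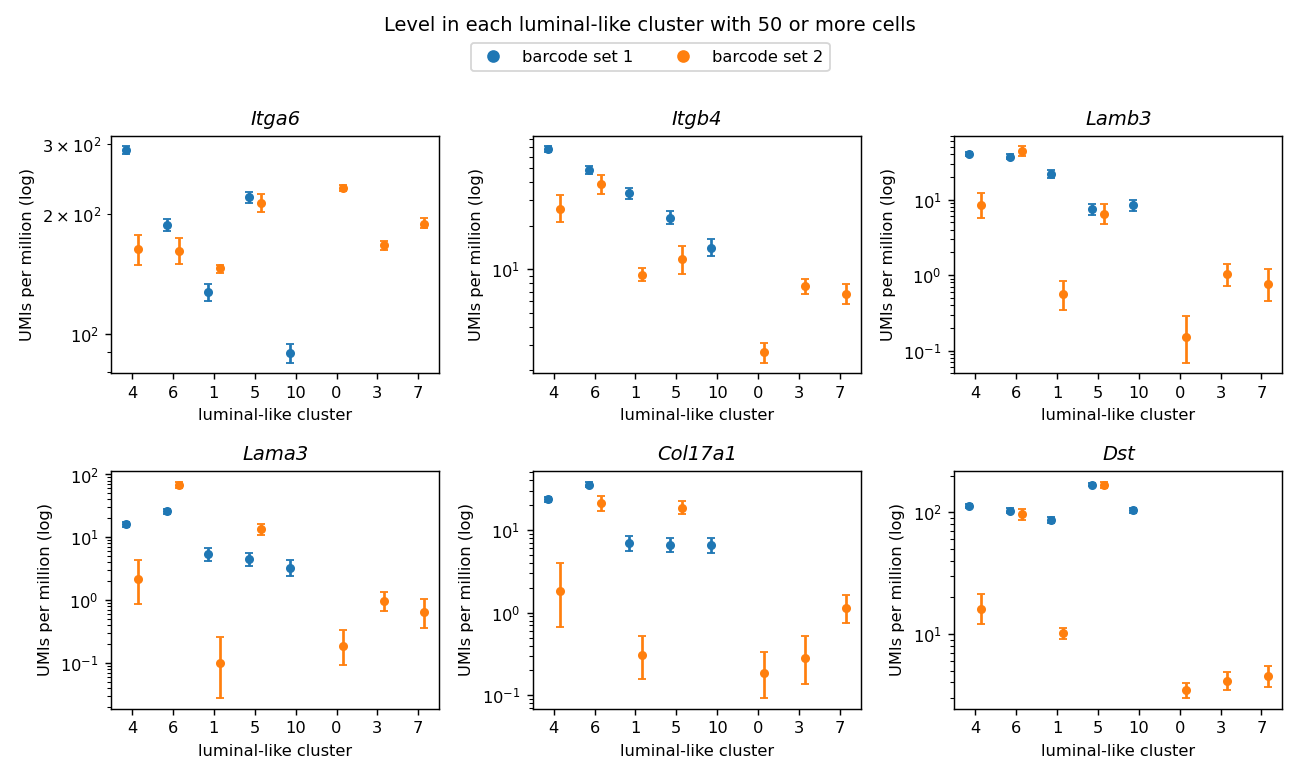
Level of 6 members (y axis, CPM, logarithmic) in each luminal-like cluster (x axis) with 50 or more cells of set 1 (blue) or set 2 (orange), with 95% counting intervals. Lamb3, Lama3, Col17a1 and Dst are lowest in clusters 0, 1, 3 and 7 of set 2, where Itga6 stays between 146 and 232 CPM.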

How the data were processed

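Single cells of 1 PIN and 1 PCa library were profiled with 10x Chromium 3′ v2 chemistry. Per the labels, the authors counted UMIs with Cell Ranger 3.1.0 against mm10, with transgene sequences added per their methods, and filtered out multiplets and cells with a high mitochondrial share. The deposited values are natural log values, ln(1 + 10000 × UMIs / total UMIs of the cell). They were turned back into UMIs, and 100% of values above 0 came out whole within a tolerance of 0.001. The features named ARQ and EGFP were read as the transgene and mGFP. Doublets were scored with Scrublet (scanpy 1.11.5), whose automatic limits called 0 cells. A limit of 0.25, set after the scores were seen, removed 155 and 175 cells and left 15412. Cells were clustered with Seurat 5.3.0 (20 dimensions, 30 principal components, resolution 0.5) with the members and related genes, 54 in all, left out. Clusters were named from markers. A cluster counted as luminal-like when Krt8 and Krt18 were each in at least 98% of its cells, at least 3 luminal markers were seen and its basal score was at most 1.5, limits set after the data were seen.

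UMIs were summed per class and set. CPM have exact Poisson intervals, ratios conditional binomial intervals and shares Clopper-Pearson intervals, all at 95%. A sum of 0 was set to 3 UMIs for ratios, and genes with at least 50 UMIs over both groups were tested for the background shares. The ratio function was tested on simulated data. Groups under 50 cells were left out. All 9 members, 43 related genes and the genes most like the members were named by rule, and genes that lead a cluster or list are named as its label. Of the related genes, 1 is not reported here. The members and lists were chosen with earlier results of these data known. PIN and PCa were not compared by name, because no label ties a set to a tissue.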

Additional observations from a re-analysis of the deposited data

Results flagged for a closer look

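Pooled over all luminal-like cells, 3 members moved with EGFP in opposite directions in the 2 sets. The EGFP-high over EGFP-low log2 ratio was 0.41 in set 1 and -4.61 in set 2 for Col17a1, 0.35 and -3.51 for Lama3, and 0.17 and -2.95 for Lamb3. Within cluster 6, the only luminal-like cluster where both sets allowed the contrast, all 3 were higher in EGFP-high cells in each set. Their log2 ratios there were 0.47 and 1.71 for Col17a1, 0.705 and 1.62 for Lama3, and 0.29 and 1.76 for Lamb3. The transgene (ARQ) was nearly level over that split in set 2, at 725 and 652 CPM. The difference between the sets was not tested, since each set is 1 library, and the sets differ in which luminal-like clusters hold their EGFP-low cells.

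Clusters that could not be named and enter no comparison also held members above the fibroblast-like, endothelium-like and leukocyte-like levels of their set, where those were measured. Lamb3 was at 72.9 CPM in cluster 8 and 96.3 CPM in cluster 12 of set 1, and Itgb1 at 937 CPM in cluster 14 of set 2. That Itgb1 level also lay above the basal-like level of set 2, at 590 CPM (561 to 620).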

How the results depend on the processing

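The counts of members past 2-fold kept within 1.5 times their value, or at 0, in all 118 recomputations over other clusterings, doublet, EGFP and scaling choices and clusters left out. Of 531 recomputed ratios, 429 stayed within the interval of the reported value, 102 moved outside it, and none changed direction where the interval left out 0. The contrasts within single clusters were not among these recomputations, and in some of them members pointed the other way, as given above. Of 100 recomputed shares of cells with a UMI, 64 moved, each of them with cells thinned to 6000 in place of 3000 UMIs. No paired analysis was possible because each tissue has 1 library and the barcode endings carry no replicate number. Depth limits the low values: in luminal-like cells of set 2 Lama3, Lamb3 and Col17a1 rest on 456, 351 and 291 UMIs, and intervals cover counting error only.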

Other observations

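Lamb3 was found with little or no Lama3 in the unnamed clusters 8 and 12 of set 1 (741 and 216 cells, medians of 3433 and 3789.5 UMIs), which are led by T cell genes such as Ccl5, Gzma, Pdcd1 and Icos. After thinning to 3000 UMIs, 16.6% (13.4 to 20.1) and 23.2% (17.5 to 29.8) of their cells held a Lamb3 UMI, against 6.56% of luminal-like and 2.56% of leukocyte-like cells of the set. Lama3 was at 1.3 CPM and 0 UMIs, and Col17a1 at 4.55 CPM and 0 UMIs, in these clusters. Lamb3 was thus above its level in luminal-like cells (26 CPM) where Lama3 was below its own (12.3 CPM). Krt14, the abundant basal keratin, was at 52 and 26.4 CPM there, against 119 CPM in leukocyte-like cells.

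Endothelium-like cells of set 2 held Lama3 at 23 CPM (16.8 to 30.7) beside Lamb3 at 3.5 CPM (1.41 to 7.21). Cluster 14 of set 2 (89 cells, led by Rgs5, Col1a1 and Acta2) held Itgb1 at 937 CPM (869 to 1010), Itga6 at 214 CPM and Dst at 210 CPM, with no UMI of Itgb4, Lama3 or Col17a1, which allows up to 5 CPM of each.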
